A study of Homo sapiens with 6 samples.

Results

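The 9 core genes of the Hedgehog pathway were examined in PANC-1 cells, a long-established human cell line derived from a ductal adenocarcinoma of the pancreas, after transfection with SOX9 siRNA or control siRNA. The selection rule uses their symbols and no measured value, and the genes were chosen with earlier results of these data known. They comprise the ligands SHH, IHH and DHH, the receptors PTCH1 and SMO, the inhibitor SUFU and the transcription factors GLI1, GLI2 and GLI3, which are 9 of the 19830 genes in the authors' deposited table. Per the labels' protocols, one group received 25 nM of SOX9 siRNA and the other 25 nM of control siRNA, and total RNA was taken after 48 hours, with 2 libraries in each group. Both groups carried siRNA and transfection reagent, and no library of untransfected cells was analysed here. Transfected cells were pooled before harvest, and the labels do not state whether replicate libraries derive from independent cultures, so p-values reflect the spread among these 4 libraries, which could be technical. The 2 SOX9 ChIP-seq samples of untreated cells were not analysed here.

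Hedgehog signalling starts when a secreted ligand binds PTCH1 on the receiving cell. PTCH1 otherwise holds back SMO, a membrane protein that acts in the primary cilium, and release of SMO keeps GLI2 and GLI3 from being cut into repressors. SUFU binds GLI proteins and restrains them, while GLI1 and PTCH1 are themselves transcribed when the pathway is on and serve as its usual readouts. In the developing pancreas SHH is kept out of the pancreatic bud, and in pancreatic ductal adenocarcinoma tumour cells make the ligand, which acts on stromal cells. SOX9 is a transcription factor of pancreatic progenitors and ducts.

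By the authors' deposited table SOX9, which the siRNA targets, was at 55.9% of control (95% interval 39.2% to 79.8%), and its adjusted p of 0.0643 missed the threshold of 0.05. The headers do not name the numerator of the fold change, and the sign at SOX9 was used to read it as SOX9 siRNA over control siRNA. Every direction here would turn if that reading were wrong. The table gives 1 mean normalized count, 1 fold change and 1 standard error per gene over all libraries and no value per library. An adjusted p is given for 14063 genes, called tested here, of which 254 passed, or 1.81%. Over the tested genes the median log2 fold change was -0.02. Mean normalized counts summed to 47653185 over all genes; depth per library is not given. Of the duct epithelial markers 9 of 9 were listed, and 7 were tested, 6 of them higher by point estimate, with a median log2 fold change of 0.50. The keratins KRT8, KRT18 and KRT19 had folds of 1.47, 1.41 and 1.41 in the authors' deposited table. Each had an unadjusted p under 0.05 and none was called. EPCAM, an epithelial adhesion molecule, fell to 29.5% of control there (95% interval 19.4% to 44.8%). Its adjusted p by the authors' DESeq2 test was 1.85e-05, and it was the 1 called duct marker. CFTR, a duct chloride channel, had a mean normalized count of 1.83 in the authors' deposited table and was not tested. The summed level implied for the duct list was 513995 with SOX9 siRNA and 359931 with control siRNA. Most of both sums came from KRT8, KRT18 and KRT19, so they say little of the other duct genes. Among markers of cell types that the culture should lack, the endothelial list had 0 tested genes of 5 listed, at mean counts up to 4.21. The leukocyte list had 3 of 7 tested, with PTPRC, its defining marker, at a mean count of 2.28 in the authors' deposited table. The 3 tested genes, CD14, ITGAM and CD68, were all higher by point estimate, with a median log2 fold change of 0.91. The fibroblast and stellate list had 6 of 10 tested, 5 of them higher by point estimate, with a median log2 fold change of 0.16. In each of the leukocyte and fibroblast lists 1 tested gene rose (CD68 and COL1A1), beside 0.868% of all tested genes. By the authors' DESeq2 test the adjusted p was 0.00551 for CD68 and 0.0445, close to the threshold, for COL1A1. The summed level implied for the leukocyte list was 2947 with SOX9 siRNA and 1649 with control siRNA, most of it from CD68, a lysosomal protein of many cell types. The corresponding sums were 1241 and 968 for the fibroblast list and 15.1 and 10.6 for the endothelial list. The part of these markers in the results below was not tested.

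Of the 9 Hedgehog genes, 7 were tested, 1 rose, 0 fell and 6 were not called. The gene that rose was the ligand SHH. The single call among 7 is a share of 14.3%, beside 1.81% of all tested genes in either direction, 0.868% upward and 0.939% downward, and a share over 7 genes rests here on 1 gene. By point estimate 3 of the 7 were higher (SHH, GLI1 and GLI3) and 4 lower (DHH, PTCH1, SUFU and GLI2). The median log2 fold change of the 7 was -0.22, and -0.25 over the 6 without SHH. IHH and SMO had no adjusted p.

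Group levels below are computed from the mean normalized count and the fold change of the authors' deposited table, taking the mean as the average of both groups, and so carry no spread between libraries. Counts are not scaled by transcript length, so they show how many reads stand behind a gene and give no order of levels between genes.

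**Figure D1:**
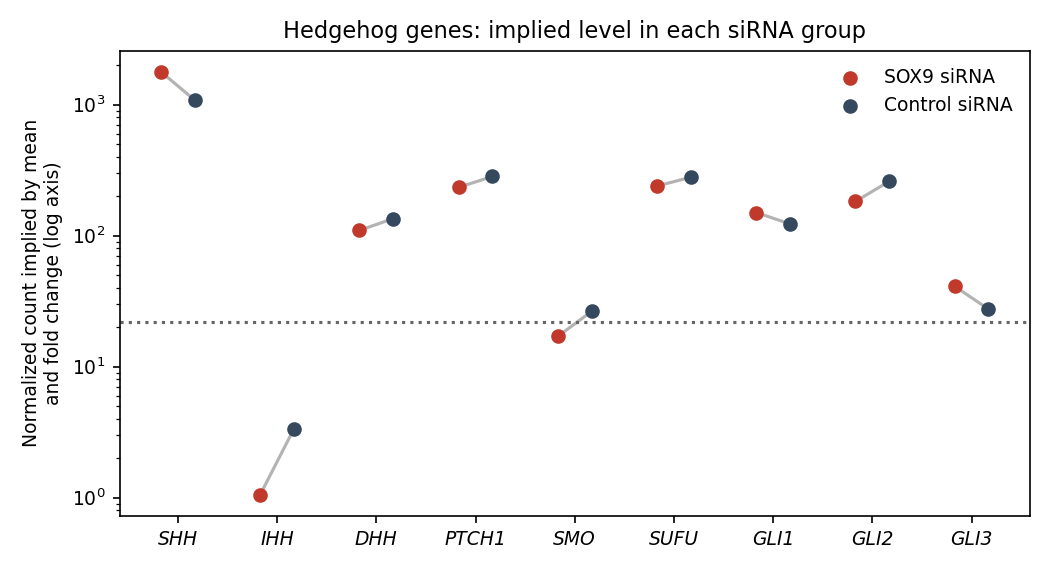
Normalized count of each Hedgehog gene in the SOX9 siRNA group (left, red) and the control siRNA group (right, blue), as implied by the authors' mean and fold change, on a log axis; the dotted line marks 21.93, the highest mean count without an adjusted p. SHH stood at 1777 with SOX9 siRNA and 1080 with control siRNA, while IHH and SMO have means under the line.

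Among the ligands, SHH had a mean normalized count of 1428 in the authors' deposited table. Its implied level was 1777 with SOX9 siRNA and 1080 with control siRNA. SHH rose 1.64-fold in the authors' deposited table (95% Wald interval 1.23 to 2.20), with a log2 fold change of 0.72, a standard error of 0.21 and an adjusted p of 0.0451. A change in the number of SHH-expressing cells and a change in SHH RNA per cell cannot be told apart in bulk RNA. SHH ranked 241 by p among the 254 called genes, with a p of 0.000777 beside the largest called p of 0.000901 by the authors' deposited table. At its standard error a 1.63-fold change was needed for a call. The 500 tested genes nearest to SHH in mean count had a median standard error of 0.19, and 73.4% of them had a smaller one than SHH.

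The call at SHH was close to the threshold. It ended when p was adjusted over every gene in the table, with an adjusted p of 0.0633. It also ended with an empirical null, which centres and scales the authors' Wald statistics by their own median and spread, with an adjusted p of 0.159. Tested against a 1.5-fold change in place of no change, SHH had an adjusted p of 1, and at a threshold of 0.01 it was not called.

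**Figure D2:**
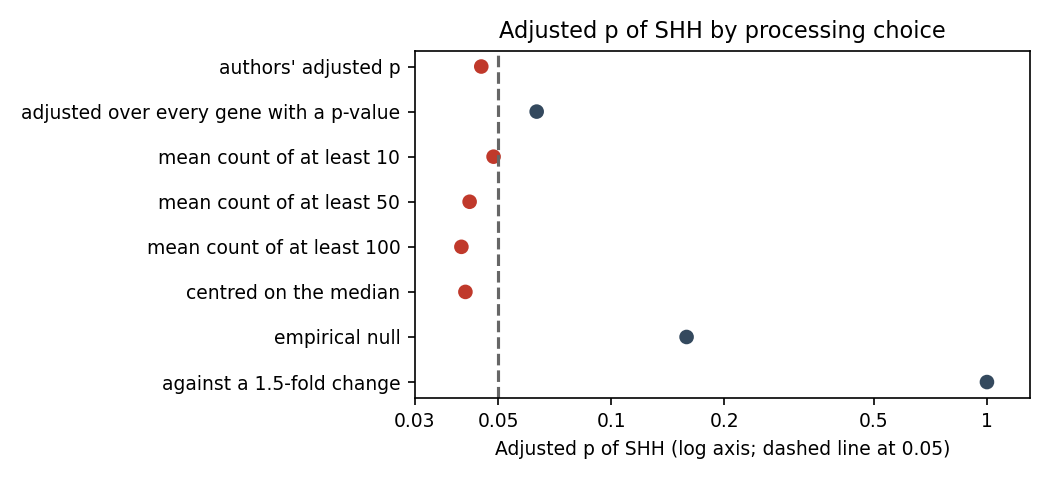
Adjusted p of SHH (log axis) under the authors' adjustment and 7 other settings, with the dashed line at 0.05; red points pass. The authors' value was 0.0451, the 4 settings that restrict mean counts or centre the fold changes ran from 0.0399 to 0.0486, and the other 3 lay at 0.0633, 0.159 and 1.

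The sequence upstream of SHH is shown because SHH is the 1 called member. It is the 250 bases before the RefSeq start (GRCh38.p14, chr7:155812464-155812713, minus strand, written 5′ to 3′), and the capitals mark a match to the SOX core letters ACAAAG, which begins 244 bases before the start.
SHH: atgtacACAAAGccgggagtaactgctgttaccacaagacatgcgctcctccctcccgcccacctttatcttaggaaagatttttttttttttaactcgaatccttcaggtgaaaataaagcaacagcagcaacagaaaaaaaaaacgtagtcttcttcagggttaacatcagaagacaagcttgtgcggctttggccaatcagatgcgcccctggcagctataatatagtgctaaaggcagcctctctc
ACAAAG and ACAATG were searched on both strands, and 21.2% of 35116 RefSeq windows of the same length held a match to either. Windows were found for 7 of the 9 genes, 12 windows in all, and 3 of the 12 held a SOX core match. A match is a description of the letters and not a site, and SOX9 binding was not measured in the data used here.

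Genes beside SHH on chromosome 7 were taken in RefSeq order as the nearest 2 tested genes on each side. Between SHH and RBM33 lay 0 other RefSeq genes, with 3 before EN2, 16 before RNF32 and 18 before LMBR1. The authors' deposited table gave RBM33, the closest on one side, a log2 fold change of -0.05 (standard error 0.16), and EN2, a homeobox gene beyond it, 0.10 (standard error 0.62). On the other side, the authors' deposited table gave RNF32 a log2 fold change of 0.10 (standard error 0.26). LMBR1, whose intron holds the limb enhancer of SHH, had 0.09 with a standard error of 0.15 there. None of the 4 was called by the authors' DESeq2 test, with adjusted p-values from 0.924 to 0.984, and 0 of the 4 had an unadjusted p under 0.05. The difference between SHH and these genes was not tested.

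DHH, the ligand best known from testis and peripheral nerve, was not called. Its implied level was 110 with SOX9 siRNA and 135 with control siRNA. In the authors' deposited table DHH stood at 81.4% of control (95% interval 46.9% to 141%) with an adjusted p of 0.896. IHH, the ligand of growth plate cartilage, had a mean normalized count of 2.20 in the authors' deposited table and an implied level of 1.06 with SOX9 siRNA and 3.35 with control siRNA. Its interval ran from 0.0158-fold to 6.27-fold, so no change of IHH was detectable at this count. SHH was thus the one ligand whose interval excluded no change, while the intervals of SHH and DHH overlapped and the difference between them was not tested.

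**Figure D3:**
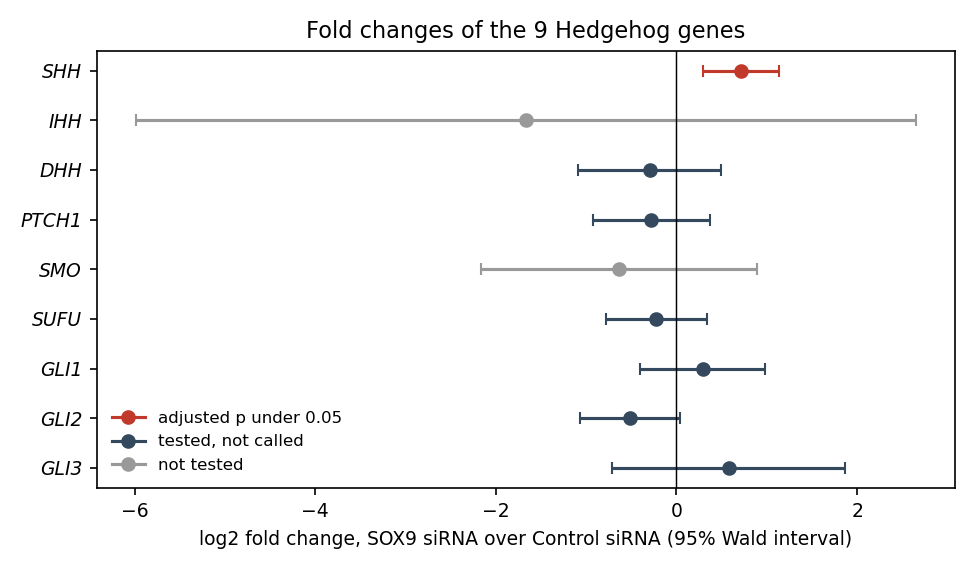
Log2 fold change of each Hedgehog gene, SOX9 siRNA over control siRNA, with 95% Wald intervals from the authors' standard errors; red passed an adjusted p of 0.05, blue was tested and not called, grey had no adjusted p. SHH at 0.72 is the one gene whose interval leaves out 0, and IHH and SMO have the widest intervals.

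The receptors gave no call. PTCH1, which binds the ligand and is induced by the pathway, had an implied level of 233 with SOX9 siRNA and 283 with control siRNA. In the authors' deposited table PTCH1 stood at 82.5% of control (95% interval 52.7% to 129%) with an adjusted p of 0.872. A rise as large as 1.29-fold therefore lay inside the interval, and a call would have needed 2.14-fold. LOC100507346, an RNA that overlaps PTCH1 in the RefSeq annotation and was named for that reason, had a mean count of 2.16 in the authors' deposited table. SMO, which passes the signal inward, had a mean normalized count of 21.71 in the authors' deposited table. That is just under 21.93, the highest mean count without an adjusted p. SMO had an implied level of 17.01 with SOX9 siRNA and 26.4 with control siRNA, a fold of 0.644 with an interval from 0.223 to 1.86 and an unadjusted p of 0.416 by the authors' deposited table.

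The PTCH1 window with a GLI motif is shown because PTCH1 is the textbook GLI target among the members. GACCACCCA and its reverse complement TGGGTGGTC were searched in the 250 bases before each start, and the match in capitals begins 172 bases before the start (GRCh38.p14, chr9:95509267-95509516, minus strand, 5′ to 3′).
PTCH1: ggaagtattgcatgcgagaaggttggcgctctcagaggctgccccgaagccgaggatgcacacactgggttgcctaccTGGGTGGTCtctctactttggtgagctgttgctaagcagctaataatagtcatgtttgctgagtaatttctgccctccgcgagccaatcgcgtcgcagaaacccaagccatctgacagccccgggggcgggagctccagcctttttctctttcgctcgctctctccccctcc
This was 1 of 5 RefSeq starts of PTCH1 and the only one of the 12 windows with the motif, which 0.199% of the 35116 windows held. Which PTCH1 start the libraries used was not measured.

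SUFU and the GLI factors gave no call either. SUFU, the inhibitor, had an implied level of 239 with SOX9 siRNA and 279 with control siRNA, and in the authors' deposited table it stood at 85.6% of control (95% interval 58.2% to 126%) with an adjusted p of 0.884. GLI1, the activator that is itself a target of the pathway, had an implied level of 150 with SOX9 siRNA and 123 with control siRNA. The authors' deposited table gave GLI1 a fold of 1.22 (95% interval 0.756 to 1.98), at an adjusted p of 0.877. A call for GLI1 would have needed a 2.26-fold change.

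GLI2, the main activator downstream of SMO, had the smallest p of the members after SHH. Its implied level was 182 with SOX9 siRNA and 260 with control siRNA. In the authors' deposited table GLI2 stood at 70.2% of control (95% interval 47.9% to 103%), with an unadjusted p of 0.0697 and an adjusted p of 0.513. The interval of GLI2 lay below that of SHH, while the intervals of the other 5 tested genes overlapped that of SHH; differences between genes were not tested. GLI3, which mostly acts as a repressor, had a mean normalized count of 34.2, and its fold of 1.49 by the authors' deposited table had an interval from 0.610 to 3.66. At that count a call would have needed a 4.56-fold change.

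**Figure D4:**
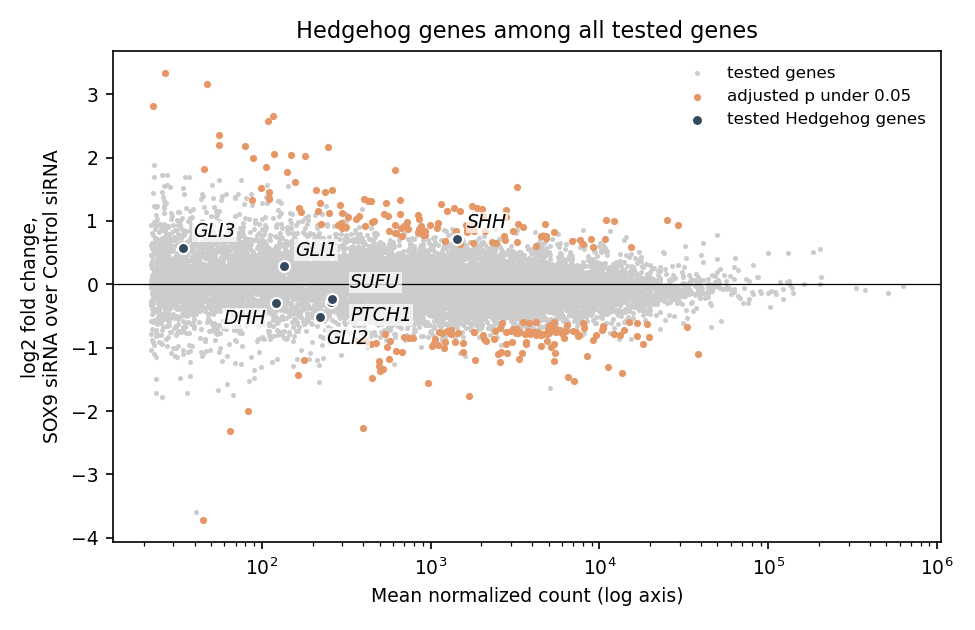
Log2 fold change (SOX9 siRNA over control siRNA) against mean normalized count on a log axis for the 14063 tested genes, with the 254 called genes in orange and the 7 tested Hedgehog genes in blue. SHH lies at the lower edge of the called genes at its count, and the other 6 lie among genes that were not called, at counts of 34.2 to 259.

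Standard errors of the members can be set beside those of genes with like counts. For PTCH1 the standard error was 0.33 beside a median of 0.29 over the 500 nearest genes, for GLI1 0.35 beside 0.36, and for GLI2 0.28 beside 0.30. The fold needed for a call over the 7 tested members ran from 1.63 for SHH to 4.56 for GLI3.

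The wider pathway was described with 71 further genes in 5 role lists, of which 69 were in the table and 54 were tested. EVC2 and NKX2-2 were not analysed here. Of the 54, 0 rose and 0 fell by the authors' DESeq2 test. At an unadjusted p under 0.05 there were 6 genes, 3 higher and 3 lower, which is 11.1% of them beside 11.1% of all tested genes. The median log2 fold change of the 54 was 0.04.

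Genes that release the ligand, among them the acyltransferase HHAT and the exporter DISP1, had 5 of 8 listed members tested and 0 with an unadjusted p under 0.05. DISP1, which frees lipid-bearing ligand from the producing cell, stood at 1.29-fold (95% interval 0.870 to 1.91) and SCUBE3, a secreted carrier of ligand, at 1.27-fold (0.852 to 1.90) in the authors' deposited table. HHAT, which attaches palmitate to the ligand and was named outside the rule, had a fold of 0.801 (0.412 to 1.56) there.

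Surface proteins that bind the ligand had 4 of 10 tested, and 0 had an unadjusted p under 0.05. Of the co-receptors, CDON had a fold of 1.29 (95% interval 0.969 to 1.72) in the authors' deposited table, while BOC and GAS1, named outside the rule, had mean counts of 1.17 and 6.58 and were not tested. The glypican GPC4 had a fold of 0.467 (0.173 to 1.26) by the authors' deposited table, which has it at a mean count of 23.0.

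Genes around SMO at the cilium had 15 of 15 listed members tested, 3 of them with an unadjusted p under 0.05. The share of all tested genes under that value was 11.1%, and the share in this list rests on 3 genes. IQCE, which holds the EVC complex at the base of the cilium, had the smallest adjusted p of the wider lists. Its implied level was 5651 with SOX9 siRNA and 3874 with control siRNA, and the authors' deposited table gave a fold of 1.46 (95% interval 1.16 to 1.84) at an adjusted p of 0.0651. KIF3A, a motor of intraflagellar transport named outside the rule, had a fold of 1.38 (1.03 to 1.85) and an adjusted p of 0.370 there. GRK3, a kinase of the family that phosphorylates SMO and is listed as ADRBK2, was given a fold of 0.759 (0.596 to 0.967) by the authors' deposited table, at an adjusted p of 0.329. ARRB1, a beta-arrestin and the member with the highest mean count, had a fold of 0.998 (0.614 to 1.62) in the authors' deposited table. EVC itself had a log2 fold change of 0.00 with a standard error of 0.22 by the authors' deposited table, and it too was named outside the rule.

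Kinases, scaffolds and ubiquitin ligases that process GLI proteins had 18 of 18 tested, 0 with an unadjusted p under 0.05, and fold changes split 9 to 9 around 0 with a median log2 value of 0.00. CSNK1A1, a casein kinase that phosphorylates GLI proteins and the member with the highest mean count, had a fold of 0.925 (95% interval 0.735 to 1.16) in the authors' deposited table. PRKACB, a catalytic subunit of protein kinase A, had 0.822 (0.641 to 1.05), and SPOPL, a relative of the ubiquitin ligase adaptor SPOP, 1.43 (0.991 to 2.08) in the authors' deposited table.

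GLI target genes had 13 of 20 listed members tested, with 1 higher and 2 lower at an unadjusted p under 0.05. Over all tested genes that share was 11.1%, and a share over 13 genes rests on few genes. The median log2 fold change of the 13 was 0.01. FOXL1, a forkhead factor of gut mesenchyme, was given a fold of 1.65 (95% interval 1.04 to 2.61) by the authors' deposited table, at an adjusted p of 0.377. CCNE1 and CCND1, cyclins of the G1 phase that many other inputs also regulate, were given folds of 0.551 (0.351 to 0.865) and 0.764 (0.590 to 0.988) by the authors' deposited table, and their adjusted p was 0.194 and 0.406. HHIP, a decoy receptor and readout named outside the rule, had a mean count of 2.51 in the authors' deposited table and was not tested.

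**Figure D5:**
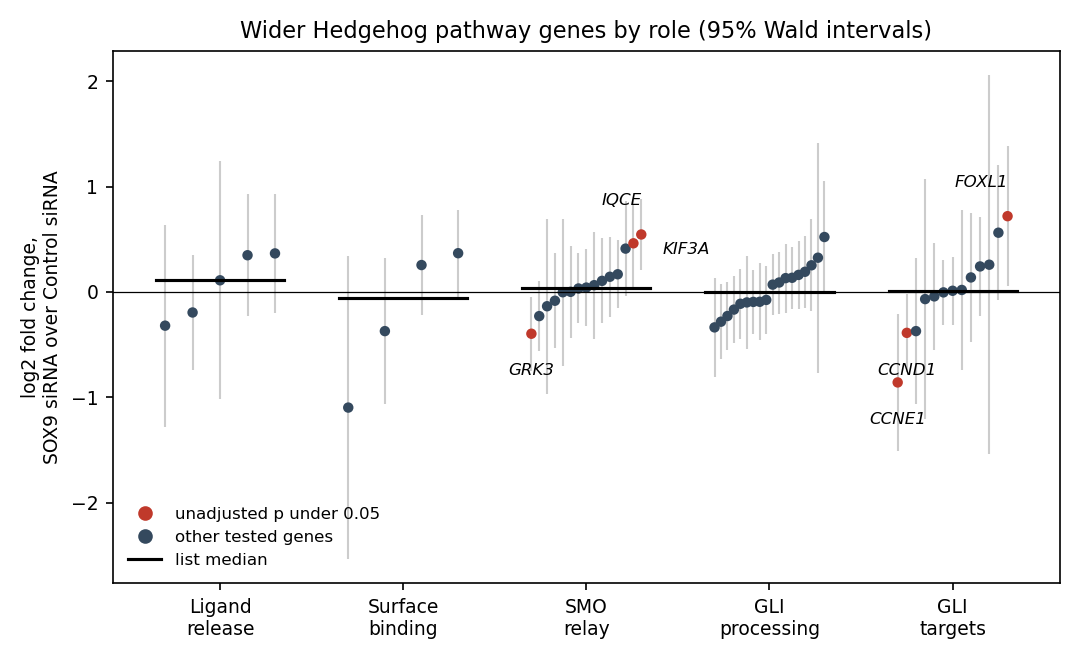
Log2 fold changes (SOX9 siRNA over control siRNA) of tested genes in 5 role lists with 95% Wald intervals; black bars are list medians and red points have an unadjusted p under 0.05. The 5 medians lie between -0.06 and 0.11, and IQCE, KIF3A, FOXL1, GRK3, CCND1 and CCNE1 are the 6 red points, none of which passed the adjusted threshold.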

How the data were processed

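Per the submitters' processing notes, the RNA libraries were processed with HISAT2 2.0.5, featureCounts and DESeq2 1.18.1, without settings. Builds hg19 and mm10 are listed with no role. Per the file headers, the deposited columns are DESeq2 output: a mean normalized count (a signal averaged over libraries), a fold change with its standard error on the log2 scale, the Wald score, and a p-value raw and adjusted by the authors. How counting treated strand and overlapping genes was not stated there, and genes that overlap are uncertain.

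The authors' adjusted p under 0.05 was the call. Wald intervals (95%), group levels and alternatives were computed with Python 3.11.15 and scipy 1.17.1, and the calling steps were tested on simulated data. The deposited adjusted p-values were recomputed by Benjamini-Hochberg from the 14063 tested genes to within 9.44e-15. RefSeq tables (GRCh38.p14) gave older symbols, used for 4 list genes, gene order and promoter windows. Named genes were the members and SOX9. Per role list they were the called genes, the 2 uncalled genes of smallest p and the uncalled gene of highest mean count. The nearest 2 tested genes on each side of a called member were named too. Others are marked as outside this rule, or belong to the marker lists or to the lists under Other observations. Members and lists were chosen with earlier results of these data known. No set test was run. Some genes of the lists are counted but not reported here by name.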

Additional observations from a re-analysis of the deposited data

How the results depend on the processing

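The 9 alternatives changed the adjustment, the minimum mean count, the threshold, the centring, the null distribution or the fold tested against. The number of Hedgehog genes called was 1, and it was 0 with adjustment over every gene, at a threshold of 0.01, with the empirical null and against a 1.5-fold change; SHH was the gene lost each time. The first and the third of these left 191 and 96 called genes in the whole table, the threshold of 0.01 left 109 and the 1.5-fold test left 3, beside 254. SHH stayed called in the other 5 alternatives. At a threshold of 0.1 the list around SMO had 1 called gene of 15 tested, IQCE, in place of 0. At that threshold 368 of the 14063 tested genes were called, or 2.62%. Counts of the other 4 role lists were 0 under every alternative run. The median log2 fold change of the members ran from -0.28 over all 9 to -0.21 after centring. The sign of a member could not turn, because only the centring altered fold changes, by subtracting a median of -0.02. The member nearest to no change was SUFU, at a log2 fold change of -0.22. No paired analysis was possible because the table holds no values per library, and for the same reason no library could be left out in turn. IHH, SMO and GLI3 had the lowest mean counts of the members and the widest intervals.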

Other observations

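Relatives of the Hedgehog genes, chosen after their values were seen, gave no call by the authors' DESeq2 test. Of the GLI-related zinc finger genes of the GLIS and ZIC families, 5 of 7 listed were tested, 0 with an unadjusted p under 0.05, and their log2 fold changes ran from -0.21 for ZIC2 to 0.24 for ZIC5 in the authors' deposited table. Of genes with a sterol-sensing domain like that of Patched, 5 of 6 listed were tested, 0 with an unadjusted p under 0.05. The authors' deposited table put PTCHD1 highest of them, at a log2 fold change of 0.68 (adjusted p 0.510), and NPC1, a lysosomal cholesterol transporter, at -0.03.

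FOXA factors, which act upstream of SHH in the mouse floor plate and gut endoderm, gave no call. The 2 tested were lower by point estimate. The FOXA factors were named outside the rule, with earlier results of these data known. The authors' deposited table put FOXA1 at 34.3% of control (95% interval 15.4% to 76.4%, adjusted p 0.188) and FOXA2 at 90.4% (67.3% to 121%, adjusted p 0.911). The standard error of FOXA1 was 0.59, beside a median of 0.30 over the 500 tested genes nearest to it in mean count. FOXA3 had a mean count of 4.39 and was not tested. A link between the FOXA factors and SHH was not tested.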
